A study of Homo sapiens with 8 samples.

Results

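The heat shock proteins and their J-domain partners were followed in MP38, a BAP1-mutant uveal melanoma (UM) cell line, as 74 genes of the 35238 symbols in the count table. Members were taken by name alone: the HSPA, HSPB and HSP90 families, HSPH1, HSPD1, HSPE1, the DNAJA, DNAJB and DNAJC families, and the transcription factors HSF1 and HSF2. The 8 libraries formed 4 groups of 2, all grown for 24 h at a final 0.1% DMSO: DMSO alone (control), 40 nM romidepsin, 40 nM quisinostat or 1200 nM mivebresib. Romidepsin and quisinostat inhibit histone deacetylases (HDACs), and mivebresib inhibits the BET bromodomain proteins. The comparisons asked how each drug shifted the chaperone genes from control, and how the drugs differed from one another. Each library came from 1 culture well of 1 cell line, so p-values measure the spread between wells of that line and not between tumors.

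Chaperones bind unfolded or partly folded proteins and release them in cycles driven by ATP. HSP70 proteins do most of this work, DNAJ (HSP40) proteins bring them clients and switch on their ATPase, and HSPH1 and other exchange factors reset them. HSP90 proteins mature kinases and receptors, small HSPB proteins hold unfolded clients without ATP, and the ring formed by HSPD1 and HSPE1 folds proteins inside mitochondria. The cytosolic stress-inducible genes are switched on by HSF1, which binds inverted repeats of the letters GAA called heat shock elements. The endoplasmic reticulum (ER) has its own set, led by HSPA5 (BiP), which the unfolded protein response switches on.

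The libraries held 28483235 to 29359024 counts. The 8 melanocytic markers together stood at 3560 to 5450 CPM (counts scaled to the adjusted library total) in every library. DCT and S100B were under 1 CPM in control, 0.0891 and 0.322 CPM, while PMEL and TYRP1 were at 505 and 3550 CPM. Of 6 leukocyte markers, CD3E was at 0 in every library and only CD68, at 74.4 CPM in control, passed the filter on low counts. MITF, MLANA and SOX10 fell with quisinostat (log2 FC -1.39, -1.05 and -0.92) and mivebresib (-1.47, -1.33 and -1.93), and SOX10 also with romidepsin (-0.39). The other tested melanocytic markers, PMEL, TYR, TYRP1 and S100B, had -0.01, 0.31, -0.25 and 0.35 with quisinostat, none called, and of these PMEL fell with mivebresib (-0.51). The 7 fibroblast markers, none at 0 in all libraries, summed to 14.5 to 22.8 CPM in control, 34.8 to 35.8 with quisinostat and 8.38 to 10.6 with mivebresib. The 5 endothelial markers summed to 0.602 to 0.913 CPM in control and up to 5.86 with quisinostat, with KDR higher by 2.42 with romidepsin and 3.18 with quisinostat. The 6 epithelial markers summed to 2.74 to 4.32 CPM in control and 6.81 to 8.58 with quisinostat, with KRT18 higher by 1.18 with quisinostat and 1.14 with mivebresib. KRT8 rose by 1.41 with quisinostat but had -0.89 with mivebresib, not called, and CLDN4 was not called with either. The 5 retinal pigment epithelium markers summed to 10.6 to 13.0 CPM in control and 7.1 to 8.81 with mivebresib. BEST1 had 0.83, 0.39 and -0.73 with romidepsin, quisinostat and mivebresib, and LRAT had 0.79 (not called), 1.34 and 2.2. The part of these shifts in the chaperone values was not tested. The control libraries differed from each other more than the other pairs did, with a chi-square per degree of freedom of 58.1 against 9.52 to 9.79 in the drug groups. In libraries of pooled cells, fewer cells of a kind and less RNA per cell cannot be told apart.

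After the filter on low counts, 66 members were tested among 15085 genes. The 8 others, DNAJB3, DNAJB7, DNAJB8, DNAJB13, DNAJC15, HSPA7, HSPB6 and HSPB9, had at most 10 counts in any library, and HSPA7 and DNAJB8 had none. A member was called at an adjusted p below 0.05 in edgeR's quasi-likelihood test.

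Romidepsin raised 10 of the 66 members and lowered 12, which is 15.2% and 18.2% of them, beside 15.1% and 15.4% of all genes tested. Quisinostat raised 19 and lowered 24, or 28.8% and 36.4%, beside 28.0% and 25% of all genes. Mivebresib raised 16 and lowered 16, or 24.2% each way, beside 22.1% and 24.0%. For each drug alone, the chaperone genes were thus called about as often as other genes, except for the larger share lowered by quisinostat. Over the 3 drugs together, 13.6% of members were called for none, beside 26.4% of all genes. All genes tested were not matched to the members by expression level. That count fell to 12 members when libraries were scaled by total counts alone and to 15 with upper-quartile factors. These scalings also moved the quisinostat median log2 fold change of all genes, to 0.2 and 0.13. The share of all genes lowered is not given here for any alternative, so the members were not compared with it there. The romidepsin falls rested on few libraries: 1 member was lowered without romidepsin replicate 1 and 19 without control replicate 2. Median log2 fold changes (FC) over the members were -0.05, -0.11 and 0.05 for romidepsin, quisinostat and mivebresib, against -0.012, -0.0036 and 0.0067 over all genes. When only changes beyond 1.5 on the log2 scale were kept, the members called were DNAJC12 with romidepsin, DNAJC12 and HSPA6 with quisinostat, and HSPA2, HSPB2 and HSPB3, all lower, with mivebresib. Changes of that size were called higher and lower in 3.76% and 0.312% of all genes with romidepsin, 11.2% and 1.03% with quisinostat, and 3.96% and 4.36% with mivebresib.

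**Figure D1:**
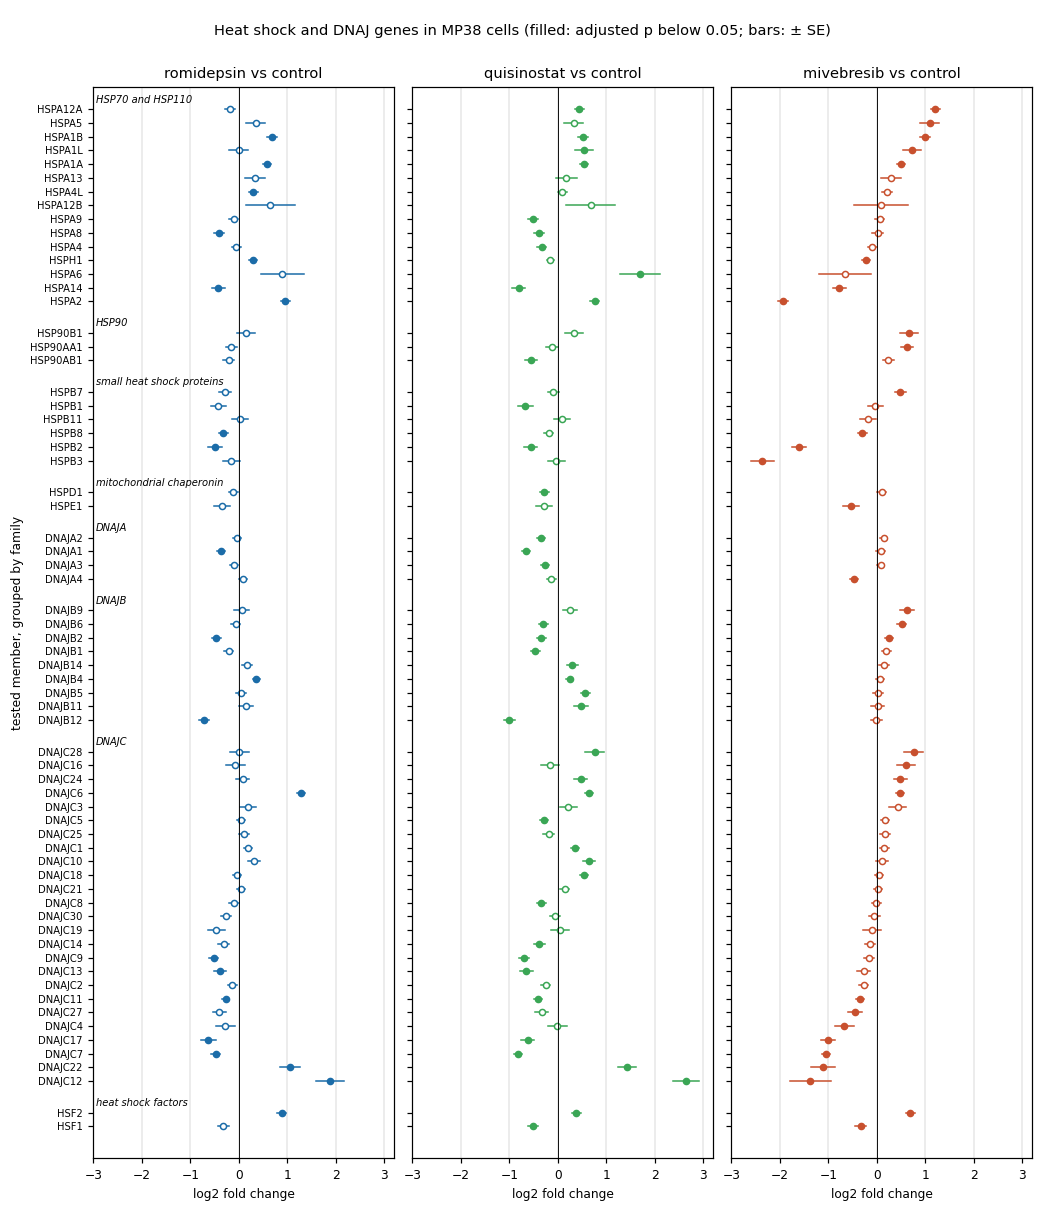
Log2 FC against control (x axis) of the 66 tested members, grouped by family and ordered within a family by the mivebresib value, with 1 panel per drug. Bars are ± SE and filled points have an adjusted p below 0.05. Romidepsin has 10 filled points above 0 and 12 below, quisinostat 19 and 24, and mivebresib 16 and 16.

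Of all genes tested, romidepsin raised 15.1% and lowered 15.4%, quisinostat 28.0% and 25%, and mivebresib 22.1% and 24.0%. The counts by family are to be read beside these shares, and several families are small. By family, the 15 tested HSP70 and HSP110 genes had 5 raised and 2 lowered with romidepsin, 6 and 4 with quisinostat, and 5 and 3 with mivebresib. Of the 3 HSP90 genes, none was called with romidepsin, 1 fell with quisinostat and 2 rose with mivebresib. The 6 small HSPs had no member raised by either HDAC inhibitor, 2 lowered by each, and 1 raised and 3 lowered with mivebresib. None of the 4 DNAJA genes rose with any drug: 1, 3 and 1 fell with romidepsin, quisinostat and mivebresib. The 9 DNAJB genes had 1 raised and 2 lowered with romidepsin, 4 and 4 with quisinostat, and 3 and 0 with mivebresib. The 25 DNAJC genes had 3 raised and 5 lowered with romidepsin, 8 and 8 with quisinostat, and 4 and 7 with mivebresib.

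Across the 3 drugs, 4 members were called higher with each (HSPA1A, HSPA1B, HSF2 and DNAJC6) and 5 lower with each (HSPA14, HSPB2, DNAJC7, DNAJC11 and DNAJC17), or 6.06% and 7.58% of members beside 5.41% and 5.74% of all genes. The drugs share the control libraries, so these joint counts carry any shift of the controls. HSPA2, DNAJC12 and DNAJC22 were higher with both HDAC inhibitors and lower with mivebresib (4.55%, beside 1.83% of all genes). A further 11 members (16.7%, beside 6.75%) were lower with quisinostat and not called with the other drugs, among them HSP90AB1, HSPA4, HSPA9, HSPB1, HSPD1 and DNAJB1. The 9 members called for no drug (13.6%, beside 26.4%) were HSPA12B, HSPA13, HSPB11, DNAJC2, DNAJC3, DNAJC19, DNAJC21, DNAJC25 and DNAJC30.

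The paired HSPA1A and HSPA1B genes rose with every drug. HSPA1A and HSPA1B, the classical heat-induced HSP70 genes, lie side by side on chromosome 6 and encode almost the same protein, so reads could be split between them. HSPA1A stood at 63.3 and 69.6 CPM in the control libraries, 102 and 97.9 with romidepsin, 94.8 and 99.7 with quisinostat, and 97.2 and 92.1 with mivebresib. All 6 treated libraries lay above both controls, with log2 FC of 0.59 ± 0.083 (SE), 0.55 ± 0.083 and 0.51 ± 0.083 (adjusted p = 0.00136, 0.000717 and 0.00131). HSPA1B stood at 150 and 177 CPM in control, 274 and 254 with romidepsin, 229 and 240 with quisinostat, and 334 and 316 with mivebresib. Its rise was 0.69 ± 0.10, 0.52 ± 0.10 and 0.99 ± 0.10, and the mivebresib libraries were also above those of romidepsin (log2 difference 0.30, adjusted p = 0.04) and quisinostat (0.47, adjusted p = 0.00464). The calls against control were kept for both genes in all 16 alternatives, and the difference of HSPA1B between mivebresib and romidepsin in 5.

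HSPA6, an HSP70 gene that is almost silent without stress, was at 8 to 16 counts in control and 43 to 45 with quisinostat, a log2 FC of 1.69 ± 0.41 (adjusted p = 0.00892). With romidepsin it had 20 and 27 counts (adjusted p = 0.159), and with mivebresib 4 and 11 (adjusted p = 0.354). Even after the rise, HSPA6 was at 1.42 and 1.37 CPM. It is nearly identical to HSPA7, which had no counts, so reads of the pair could not be told apart with certainty.

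The upstream sequence of both HSPA1 genes is shown because they rose with each drug. The 250 bases before the start site are from RefSeq (GRCh38.p14), plus strand, at chr6:31815293-31815542 for HSPA1A and chr6:31827488-31827737 for HSPA1B, with a paired heat shock element, GAANNTTC, in capitals.
HSPA1A: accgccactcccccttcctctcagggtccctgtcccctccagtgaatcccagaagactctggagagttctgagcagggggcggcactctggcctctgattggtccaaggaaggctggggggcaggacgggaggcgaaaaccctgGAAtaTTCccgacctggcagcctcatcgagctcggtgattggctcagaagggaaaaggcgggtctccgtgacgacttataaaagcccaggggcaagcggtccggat
HSPA1B: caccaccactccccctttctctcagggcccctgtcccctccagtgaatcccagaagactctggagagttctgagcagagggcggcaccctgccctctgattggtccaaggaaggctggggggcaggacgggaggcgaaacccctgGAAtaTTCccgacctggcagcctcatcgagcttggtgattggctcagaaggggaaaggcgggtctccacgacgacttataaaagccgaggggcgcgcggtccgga
The element ends 99 bases before the HSPA1A start and 98 bases before that of HSPA1B. Paired elements were found in 6.77% of 35116 promoter windows (250 bases before to 50 after a start) and in 17 of the 64 members that had a window. The motifs were chosen after the expression values had been seen, and a match is a description of letters, not of binding.

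The HSF genes themselves moved in opposite directions. HSF1, the main activator of the response, stood at 151 and 125 CPM in control, 108 and 113 with romidepsin, 97.7 and 97.1 with quisinostat, and 118 and 102 with mivebresib. The quisinostat fall was 0.51 ± 0.11 on the log2 scale (log2 FC -0.51, adjusted p = 0.00515). The mivebresib value, -0.33 (adjusted p = 0.0375), was called, but kept in 8 of 16 alternatives and lost, among others, without control replicate 1 or mivebresib replicate 2 (-0.17 without control replicate 1), and the romidepsin value, -0.32 (adjusted p = 0.0573), was not. HSF1 overlaps DGAT1 on the opposite strand over 139 bases, and DGAT1 itself rose by 1.56 with mivebresib. HSF2, a factor that can pair with HSF1, stood at 9.81 and 9.72 CPM in control, 18.6 and 17.5 with romidepsin, 12.8 and 12.5 with quisinostat, and 15.7 and 15.8 with mivebresib. No treated library reached down to the controls, and the log2 FCs were 0.89 ± 0.091, 0.38 ± 0.092 and 0.69 ± 0.092 (adjusted p = 0.000324, 0.00885 and 0.000448). Romidepsin was above quisinostat (quisinostat minus romidepsin -0.51, adjusted p = 0.00318). The quisinostat call for HSF2 was lost without either quisinostat library.

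**Figure D2:**
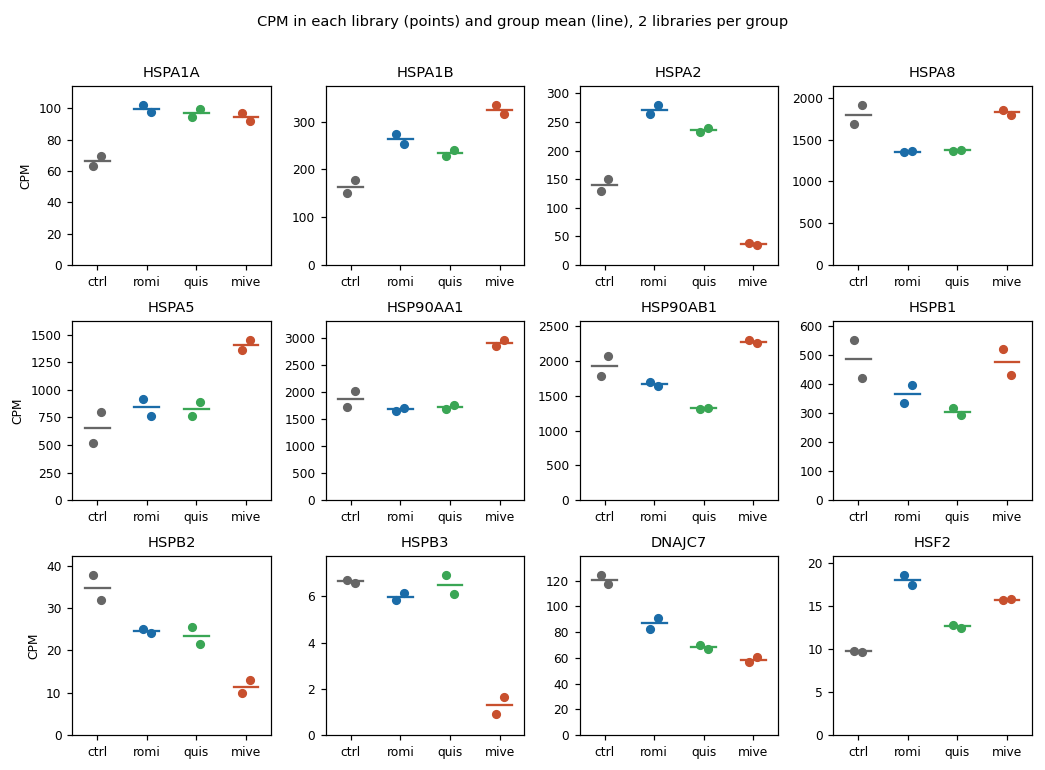
CPM (y axis, from 0) of 12 members in each of the 8 libraries, as points, with group means as lines, for control, romidepsin, quisinostat and mivebresib. HSPA2 is at 34.6 to 38.1 CPM in the mivebresib libraries and at 233 to 279 CPM in the HDAC inhibitor libraries, on either side of the controls.

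The abundant cytosolic chaperones did not follow the rise of HSPA1A with the HDAC inhibitors. Per kilobase of transcript, HSPA8 and HSP90AB1 were the most abundant members in control, at 731 and 721 CPM per kb, followed by HSPB1 (536) and HSP90AA1 (531). HSPA8, the constitutive HSP70, stood at 1690 and 1910 CPM in control, 1350 and 1360 with romidepsin, 1360 and 1380 with quisinostat, and 1860 and 1800 with mivebresib. The HDAC inhibitor libraries were all below the controls, and the mivebresib libraries lay among them. The log2 FCs were -0.41 ± 0.11 and -0.39 ± 0.11 (adjusted p = 0.0226 and 0.0145) for romidepsin and quisinostat and 0.02 ± 0.11 (adjusted p = 0.89) for mivebresib. Both HSPA8 calls were kept in 11 of 16 alternatives: each was lost without either quisinostat library, the romidepsin call also without either romidepsin library, and the quisinostat call with scaling by total counts alone.

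HSP90AA1, the stress-inducible cytosolic HSP90, stood at 1710 and 2020 CPM in control, 1650 and 1700 with romidepsin, 1690 and 1750 with quisinostat, and 2840 and 2950 with mivebresib. Mivebresib raised it by 0.63 ± 0.12 (adjusted p = 0.00297), and the values for romidepsin and quisinostat were -0.15 and -0.12 (adjusted p = 0.361 and 0.438). HSP90AB1, the constitutive form, stood at 1780 and 2080 CPM in control, 1700 and 1640 with romidepsin, 1310 and 1330 with quisinostat, and 2300 and 2260 with mivebresib. Quisinostat lowered it (log2 FC -0.55 ± 0.12, adjusted p = 0.00428), and the mivebresib value of 0.24 missed the threshold (adjusted p = 0.119). Both genes were higher with mivebresib than with quisinostat, by 0.75 (HSP90AA1, adjusted p = 0.00085) and 0.79 (HSP90AB1, adjusted p = 0.000524).

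Among the J-domain genes, DNAJA1 and DNAJB1 shared part of this pattern, and DNAJB4 went the other way. DNAJA1, which pairs with HSPA8, stood at 412 and 414 CPM in control, 319 and 326 with romidepsin, 268 and 254 with quisinostat, and 451 and 423 with mivebresib. Its log2 FC was -0.36 (adjusted p = 0.0154), -0.66 (adjusted p = 0.000329) and 0.08 (adjusted p = 0.475), and the romidepsin call was lost without either romidepsin library. DNAJB1, the stress-induced HSP40, stood at 238 and 213 CPM in control and 172 and 157 with quisinostat, a log2 FC of -0.46 (adjusted p = 0.00537) that was lost with scaling by total counts alone. DNAJB1 was not called with romidepsin (-0.21, adjusted p = 0.151) or mivebresib (0.20, adjusted p = 0.13). DNAJB4 was higher with romidepsin (0.36, adjusted p = 0.00758) and quisinostat (0.25, adjusted p = 0.0199), and not called with mivebresib (0.07, adjusted p = 0.453). Its romidepsin call was lost without either romidepsin library, and its quisinostat call without either quisinostat library. With romidepsin, DNAJA2 (-0.03) and DNAJA4 (0.08) were not called.

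The promoter windows were searched on both strands for an extended element, in which GAA, any 2 bases, TTC, any 2 bases and GAA follow each other. It contains the paired element. It was found in 172 of 35116 windows (0.49%) and in 7 of the 64 members with a window, which were HSPA6, HSPA8, HSP90AA1, HSP90AB1, HSPD1, DNAJA1 and DNAJB6. A member counted if any of its windows matched, so the window share and the member count have unlike units. HSP90AA1, HSP90AB1 and HSPD1 had further windows without the extended element. Of these 7, quisinostat raised 1 and lowered 5, romidepsin lowered 2, and mivebresib raised 2, beside 28.0%, 25%, 15.4% and 22.1% of all genes in the same order. Of the 15 tested members with the paired element, these 7 among them, quisinostat raised 5 and lowered 7. Romidepsin raised 3 and lowered 3 of the 15, and mivebresib raised 6 and lowered 2. Romidepsin raised 15.1% of all genes and mivebresib lowered 24.0%. The 250 bases upstream of the start sites are shown for HSPA8 (chr11:123062137-123062386, minus strand), HSP90AA1 (chr14:102087045-102087294, minus strand, the downstream of its listed starts) and HSP90AB1 (chr6:44247693-44247942, plus strand, also the most downstream start). HSPA8, HSP90AA1 and HSP90AB1 hold the element and, unlike HSPA1A, were not raised by either HDAC inhibitor. HSPA6, another holder, was raised by quisinostat (log2 FC 1.69, adjusted p = 0.00892). The part of the element in these values was not tested. With mivebresib, HSP90AA1 rose as HSPA1A did. The sequences are from RefSeq on GRCh38.p14, and the capitals mark the units of the element.
HSPA8: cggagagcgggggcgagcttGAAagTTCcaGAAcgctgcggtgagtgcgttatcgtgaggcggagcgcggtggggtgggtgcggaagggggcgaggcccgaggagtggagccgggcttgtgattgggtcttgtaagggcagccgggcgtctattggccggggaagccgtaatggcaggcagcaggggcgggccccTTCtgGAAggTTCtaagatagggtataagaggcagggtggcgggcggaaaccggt
HSP90AA1: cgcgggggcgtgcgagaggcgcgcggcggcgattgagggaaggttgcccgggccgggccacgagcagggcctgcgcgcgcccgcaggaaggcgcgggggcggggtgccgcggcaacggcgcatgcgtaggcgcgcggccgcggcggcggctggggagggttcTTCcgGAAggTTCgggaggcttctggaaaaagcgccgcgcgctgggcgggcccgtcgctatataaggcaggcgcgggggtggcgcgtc
HSP90AB1: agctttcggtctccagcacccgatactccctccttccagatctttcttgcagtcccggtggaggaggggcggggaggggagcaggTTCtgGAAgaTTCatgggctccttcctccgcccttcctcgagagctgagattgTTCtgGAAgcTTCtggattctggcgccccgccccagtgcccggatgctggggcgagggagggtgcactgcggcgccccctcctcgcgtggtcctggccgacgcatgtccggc
The HSPA8 window holds the element at -230 to -218 and -55 to -43 from the start, that of HSP90AB1 at -165 to -153 and -112 to -100, and that of HSP90AA1 at -88 to -76. The HSPA1A and HSPA1B windows hold the paired element only. DNAJB6, a holder of the element that keeps aggregation-prone proteins soluble, was lowered by quisinostat (log2 FC -0.30, adjusted p = 0.0261) and raised by mivebresib (0.52 ± 0.093, adjusted p = 0.00208). The quisinostat call for DNAJB6 was lost under 8 of 16 alternatives.

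**Figure D3:**
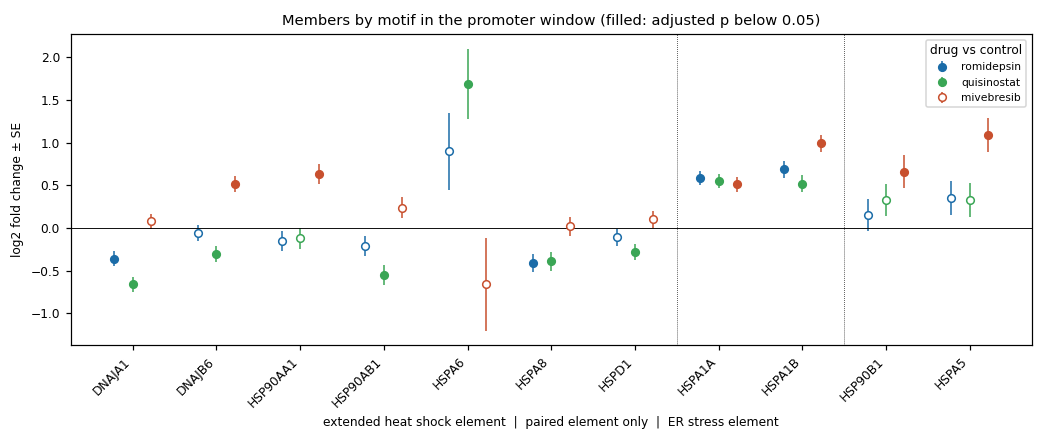
Log2 FC ± SE (y axis) for each drug against control of the 7 members with the extended heat shock element, of HSPA1A and HSPA1B with the paired element only, and of both members with the ER stress element. Filled points have an adjusted p below 0.05. HSPA1A and HSPA1B are above 0 for each drug, while 5 of the 7 members with the extended element are below 0 and filled for quisinostat. HSPA6 is above 0 and filled for quisinostat.

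Of 7 ER lumen members, HSPA5, HSP90B1 and DNAJB9 rose with mivebresib. HSPA5, the ER HSP70 that binds unfolded secretory proteins and holds the stress sensors inactive, stood at 517 and 800 CPM in control, 921 and 760 with romidepsin, 765 and 886 with quisinostat, and 1360 and 1450 with mivebresib. Mivebresib was above both controls, with a log2 FC of 1.09 ± 0.20 (adjusted p = 0.00253), and above romidepsin (0.74, adjusted p = 0.015) and quisinostat (0.77, adjusted p = 0.0106). The difference from romidepsin was lost without either mivebresib library or romidepsin replicate 2, and that from quisinostat without mivebresib replicate 2 or quisinostat replicate 1. The HDAC inhibitor libraries overlapped control replicate 2, and their log2 FCs of 0.35 and 0.33 were not called (adjusted p = 0.21 and 0.198). Without control replicate 2 both were called, at 0.70 and 0.67.

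HSP90B1 (GRP94), the ER HSP90, stood at 547 and 839 CPM in control, 809 and 729 with romidepsin, 799 and 947 with quisinostat, and 1030 and 1160 with mivebresib. The mivebresib log2 FC was 0.66 ± 0.19 (adjusted p = 0.0228), and this call was lost without either mivebresib library (0.74 and 0.57). Without control replicate 1 the HSP90B1 value was 0.41 and without control replicate 2 it was 1.0, both called. DNAJB9, an HSPA5 partner induced by the unfolded protein response, stood at 54.2 and 75.8 CPM in control and 97.5 and 102 with mivebresib, a log2 FC of 0.62 ± 0.15 (adjusted p = 0.0093) that was lost without mivebresib replicate 2. DNAJC3, another ER partner that restrains the kinase PERK, was at 67.2 and 96.4 CPM in control and 107 and 113 with mivebresib, but its 0.43 ± 0.17 was not called (adjusted p = 0.0641). DNAJC3 ran from 0.21 without control replicate 1 to 0.71 without control replicate 2, and was called in 5 of 16 alternatives: DESeq2, both other scalings, the replicate block and without control replicate 2.

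The ER lumen members as a set (HSPA5, HSPA13, HSP90B1, DNAJB9, DNAJB11, DNAJC3 and DNAJC10), grouped after their values were seen, had 3 of 7 raised by mivebresib and a median of 0.43, beside 22.1% of all genes raised. Quisinostat raised DNAJB11 (0.48, lost without control replicate 1 or quisinostat replicate 2) and DNAJC10 and none of the others, with a set median of 0.33, and romidepsin raised none (median 0.19). Each of the 7 was higher in control replicate 2 than in control replicate 1, by a median of 0.52 on the log2 scale, while the median over all genes was 0.0. The part of this difference between control wells in the drug effects was not tested. The ER stress element, which is CCAAT, any 9 bases and CCACG on either strand, was found in 27 of 35116 windows (0.0769%), and among members in those of HSPA5 and HSP90B1. Both 250-base upstream regions are shown, at chr9:125241344-125241593 (minus strand) and chr12:103930160-103930409 (plus strand), from RefSeq on GRCh38.p14 with the element's fixed letters in capitals.
HSPA5: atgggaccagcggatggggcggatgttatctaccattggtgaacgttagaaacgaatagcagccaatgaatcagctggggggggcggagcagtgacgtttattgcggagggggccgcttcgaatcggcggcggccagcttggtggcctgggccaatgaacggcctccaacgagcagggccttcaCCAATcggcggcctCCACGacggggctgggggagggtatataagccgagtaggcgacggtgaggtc
HSP90B1: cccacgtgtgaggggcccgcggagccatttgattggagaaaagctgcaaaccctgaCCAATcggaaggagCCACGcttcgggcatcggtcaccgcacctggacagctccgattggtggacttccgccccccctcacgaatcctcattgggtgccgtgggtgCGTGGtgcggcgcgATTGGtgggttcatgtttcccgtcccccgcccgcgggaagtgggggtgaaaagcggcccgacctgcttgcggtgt
The HSPA5 element lies at -66 to -48 from the start, and HSP90B1 has elements at -194 to -176 and -89 to -71.

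**Figure D4:**
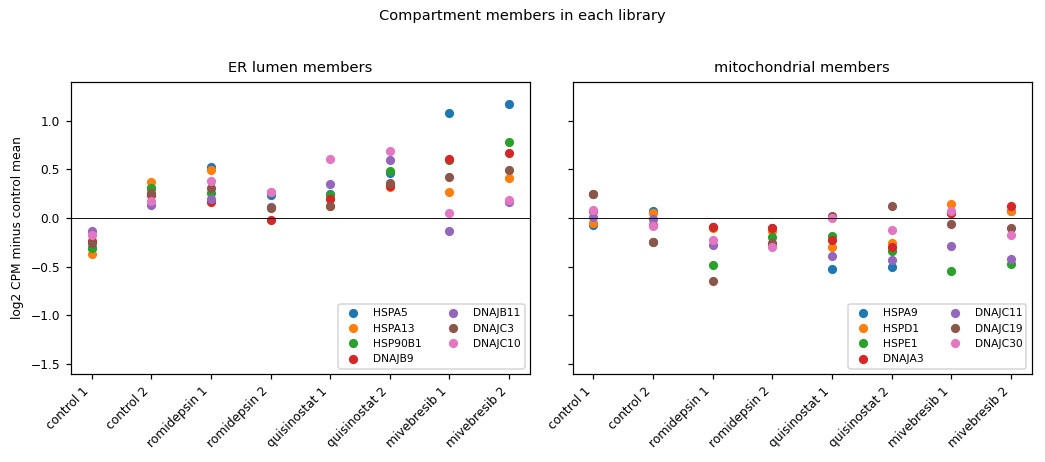
Log2 CPM minus the control mean (y axis) in each library for 7 ER lumen members (left) and 7 mitochondrial members (right). Control 1 lies below 0 and control 2 above 0 for every ER lumen member, and HSPA5 in the mivebresib libraries is at 1.08 and 1.17.

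Of 7 tested members listed here as mitochondrial, none was called higher than control with any of the 3 drugs. These were HSPA9, HSPD1, HSPE1, DNAJA3, DNAJC11, DNAJC19 and DNAJC30. The list was written by hand, was grouped after the values were seen, and may leave out other mitochondrial members. Quisinostat lowered 4 of the 7, romidepsin 1 and mivebresib 2, beside 25%, 15.4% and 24.0% of all genes. HSPA9 (mortalin), the mitochondrial HSP70 that pulls proteins through the import channel, stood at 707 and 774 CPM in control, 695 and 689 with romidepsin, 517 and 525 with quisinostat, and 764 and 776 with mivebresib. The romidepsin libraries were just below the lower control, and the quisinostat libraries further below it (log2 FC -0.51 ± 0.094, adjusted p = 0.00217), and they were also below romidepsin (-0.41, adjusted p = 0.0108), a difference lost without quisinostat replicate 1 or either romidepsin library. HSPD1, the chaperonin ring subunit, was at 901 and 962 CPM in control and 757 and 779 with quisinostat (log2 FC -0.28, adjusted p = 0.0381), a call kept in 4 of 16 alternatives. HSPE1, its lid, was at 188 and 132 CPM in control and 108 and 114 with mivebresib (log2 FC -0.53, adjusted p = 0.0302), a call kept in 10 of 16 alternatives and lost without either mivebresib or quisinostat library or control replicate 1 (-0.23). HSPD1 and HSPE1 overlap on opposite strands over 3464 bases.

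HSPA2 moved in opposite directions under the HDAC inhibitors and mivebresib. This HSP70 gene (ENSG00000126803, chr14:64535905-64546173, plus strand), best known for its role in sperm development, stood at 130 and 150 CPM in control, 263 and 279 with romidepsin, 233 and 239 with quisinostat, and 38.1 and 34.6 with mivebresib. No group overlapped another. Its log2 FC was 0.96 ± 0.097 (adjusted p = 0.000315), 0.76 ± 0.097 (adjusted p = 0.000299) and -1.94 ± 0.10 (adjusted p = 5e-06). Mivebresib was below romidepsin and quisinostat by more than it was below control (log2 differences -2.9 and -2.7, adjusted p = 1.24e-06 and 1.17e-06). Romidepsin and quisinostat differed by -0.20 ± 0.096 (quisinostat minus romidepsin, adjusted p = 0.147). The HSPA2 window held none of the searched elements.

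Other HSP70 relatives differed by drug. HSPA12A, a divergent HSP70 relative, stood at 18.6 and 18.7 CPM in control, 16.5 and 16.4 with romidepsin, 26.5 and 24.2 with quisinostat, and 40.7 and 45.6 with mivebresib. The rise was 1.21 ± 0.093 (adjusted p = 2.58e-05) with mivebresib and 0.44 ± 0.093 (adjusted p = 0.00423) with quisinostat, and the romidepsin value was -0.18 (adjusted p = 0.18). HSPA14, a partner of the ribosome-bound chaperone, fell with each drug, from 64.9 and 51.4 CPM to 42.5 and 44.3, 35.0 and 31.5, and 37.3 and 30.7. Its log2 FC was -0.42 (adjusted p = 0.0433), -0.81 (adjusted p = 0.00129) and -0.77 (adjusted p = 0.00195), and the romidepsin call was kept in 7 of 16 alternatives (-0.22 without control replicate 1). The annotation holds a further HSPA14 gene model over the same bases, and the count table has 1 row for the symbol. HSPH1 (HSP110), an exchange factor for HSP70, rose with romidepsin from 156 and 172 CPM to 205 and 199 (log2 FC 0.30, adjusted p = 0.0228) and had -0.15 with quisinostat (adjusted p = 0.16). Its mivebresib value of -0.23 (adjusted p = 0.0433) kept its call in 3 of 16 alternatives. Quisinostat was below romidepsin for HSPH1 by 0.45 on the log2 scale (difference -0.45, adjusted p = 0.00363).

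Among the small HSPs, the 2 with the largest falls were lowered by mivebresib. HSPB3 (chr5:54455601-54456384), expressed mainly in muscle, stood at 6.70 and 6.58 CPM in control, 5.84 and 6.13 with romidepsin, 6.90 and 6.11 with quisinostat, and 0.914 and 1.65 with mivebresib. Those mivebresib values rest on 25 and 46 counts, and the log2 FC was -2.36 ± 0.23 (adjusted p = 8.03e-05), with -0.15 and -0.03 for romidepsin and quisinostat (adjusted p = 0.57 and 0.91). HSPB2, which partners HSPB3 in muscle, stood at 37.7 and 31.8 CPM in control, 25.1 and 24.2 with romidepsin, 25.5 and 21.5 with quisinostat, and 9.88 and 13.0 with mivebresib. All treated libraries were below both controls, with log2 FCs of -0.49, -0.56 and -1.6 (adjusted p = 0.0333, 0.0111 and 8.09e-05). HSPB2 overlaps CRYAB on the opposite strand (1770 CPM in control) and the readthrough HSPB2-C11orf52 on the same strand (70.8 CPM, -1.83 with mivebresib). The romidepsin call for HSPB2 was kept in 7 of 16 alternatives.

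HSPB1 (HSP27), the abundant actin-guarding small HSP, stood at 552 and 422 CPM in control, 335 and 396 with romidepsin, 319 and 293 with quisinostat, and 521 and 431 with mivebresib. Only quisinostat was called (log2 FC -0.67 ± 0.16, adjusted p = 0.00714), with romidepsin at -0.42 (adjusted p = 0.077) and mivebresib at -0.03 (adjusted p = 0.88). HSPB7, a cardiac small HSP, rose with mivebresib from 449 and 377 to 612 and 545 CPM (log2 FC 0.49, adjusted p = 0.012), a call lost without mivebresib replicate 1. HSPB8, which works with BAG3 in selective autophagy, was at 142 and 124 CPM in control and was lowered by romidepsin (-0.32, adjusted p = 0.0351) and mivebresib (-0.30, adjusted p = 0.0306), calls kept in 7 and 8 of 16 alternatives. Without control replicate 1 these HSPB8 values were -0.20 and -0.18.

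The largest DNAJ change was in DNAJC12, a co-chaperone of the aromatic amino acid hydroxylases. It had 18 and 11 counts in control, 53 and 59 with romidepsin, 110 and 98 with quisinostat, and 4 and 7 with mivebresib. The log2 FC was 1.88 ± 0.29 (adjusted p = 0.00209), 2.65 ± 0.27 (adjusted p = 8.78e-05) and -1.37 ± 0.43 (adjusted p = 0.0286), the last lost without control replicate 1 (-0.97) or mivebresib replicate 1 (-1.04). DNAJC22 moved the same way, from 1.98 and 2.34 CPM in control to 4.12 and 4.89, 5.76 and 5.92, and 1.21 and 0.791, with log2 FCs of 1.06, 1.43 and -1.11 (adjusted p = 0.00501, 0.000388 and 0.00578).

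DNAJC6 (auxilin), which with HSPA8 strips clathrin from vesicles, stood at 24.4 and 25.5 CPM in control, 61.5 and 60.3 with romidepsin, 39.1 and 39.5 with quisinostat, and 36.0 and 33.5 with mivebresib. Romidepsin gave the highest values, with a log2 FC of 1.29 ± 0.079 (adjusted p = 6.24e-05), and quisinostat was 0.63 lower (difference -0.63, adjusted p = 0.000604). DNAJC7, which holds clients between HSP70 and HSP90, fell from 124 and 117 CPM to 82.1 and 91.3, 70.3 and 67.0, and 56.5 and 60.4. Its log2 FC was -0.48 ± 0.086 (adjusted p = 0.00419), -0.82 ± 0.086 (adjusted p = 0.000105) and -1.05 ± 0.087 (adjusted p = 3.91e-05), and the romidepsin call was lost without romidepsin replicate 1. DNAJC7 overlaps CNP on the opposite strand, which had -0.61, -1.0 and -0.45, and the strand setting of the counting was not given in the sources used here.

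DNAJB12, an ER membrane co-chaperone, fell from 52.5 and 65.2 CPM to 35.5 and 35.7 with romidepsin and 28.7 and 30.3 with quisinostat, and stood at 56.0 and 60.5 with mivebresib. Its log2 FC was -0.72 ± 0.11 (adjusted p = 0.00208), -1.0 ± 0.11 (adjusted p = 0.000141) and -0.01 ± 0.11 (adjusted p = 0.926). DNAJB12 was the only lowered member whose romidepsin call was kept in all alternatives. DNAJB2, abundant in neurons, was lowered by romidepsin (-0.46, adjusted p = 0.00545) and quisinostat (-0.34, adjusted p = 0.0116), with a mivebresib call of 0.25 (adjusted p = 0.0487) kept in 7 of 16 alternatives. The DNAJB2 quisinostat call was kept in 12 of 16, lost among others with either other scaling and without quisinostat replicate 2, and the romidepsin call was lost without romidepsin replicate 1. DNAJB5 rose with quisinostat only among the 3 drugs (log2 FC 0.57 ± 0.097, adjusted p = 0.00139) and was above romidepsin there (0.52, adjusted p = 0.0042). DNAJA4, linked to sterol metabolism, fell with mivebresib from 229 and 208 to 154 and 160 CPM (log2 FC -0.47, adjusted p = 0.00224).

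The HDAC inhibitors at 40 nM were compared directly, and the number of members called depended on the model. With only the 4 libraries compared, quisinostat was higher than romidepsin in 9 members and lower in 26. The shares of all genes in that fit are not given here. In the main model of 8 libraries, quisinostat was higher than romidepsin in 5 of 66 (7.58%, beside 20.8% of all genes). It was lower there in 9 (13.6%, beside 14.3%). The 9 became 26 without control replicate 1 and 3 without romidepsin replicate 2. The 5 were HSPA12A, DNAJB5, DNAJC12, DNAJC18 and DNAJC28, and the 9 were HSPA4, HSPA9, HSPH1, HSF2, DNAJA1, DNAJA2, DNAJC5, DNAJC6 and DNAJC7. Mivebresib was higher than romidepsin in 18 members and lower in 11 (27.3% and 16.7%, beside 23.5% and 25%). Against quisinostat it was higher in 25 and lower in 13 (37.9% and 19.7%, beside 26.0% and 31.4%). The 25 included HSP90AA1, HSP90AB1, HSPA5, HSPA8, HSPA9, HSPB1, HSPD1, DNAJA1 and DNAJB1. Scaling by total counts alone raised the lower count to 23 of 66. Beyond 1.5 on the log2 scale, no member was called between the HDAC inhibitors (5.39% higher and 0.179% lower among all genes). Mivebresib was that far below romidepsin in 5 members and below quisinostat in 5, namely HSPA2, HSPA6, HSPB3, DNAJC12 and DNAJC22 each time, and above in none. The shares of all genes were 2.5% higher and 6.68% lower against romidepsin, and 1.72% and 12.6% against quisinostat. The doses differ between mivebresib and the HDAC inhibitors, so these are comparisons of the conditions used.

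Other genes of the folding machinery were counted by lists, to be read beside the shares of all genes raised and lowered: 15.1% and 15.4% with romidepsin, 28.0% and 25% with quisinostat, and 22.1% and 24.0% with mivebresib. Of 19 tested genes listed as co-chaperones of HSP90 and HSP70 without a J domain, mivebresib raised 6 and lowered 2, quisinostat lowered 4 and raised none, and romidepsin raised 2 and lowered 1. Among the 6 raised is TRAP1 (0.49, adjusted p = 0.00118), which is the mitochondrial HSP90 itself and not a co-chaperone. FKBP5, an HSP90-bound isomerase, had log2 FCs of 0.63 (adjusted p = 0.00225), 0.13 (adjusted p = 0.279) and 0.94 (adjusted p = 0.000117), and FKBP8, a mitochondrial membrane isomerase, had -0.89 (adjusted p = 0.000742) with mivebresib. Of 10 nucleotide exchange factors, quisinostat lowered 5, including BAG3 (-0.40, adjusted p = 0.00784), while mivebresib raised 2 and lowered 1 and romidepsin lowered 1. Among 15 subunits of the cytosolic TRiC ring and its partner prefoldin, quisinostat raised 1 and lowered 4, mivebresib raised 1 and lowered 3, and romidepsin lowered 1. CCT5 was called with romidepsin (-0.41, adjusted p = 0.0147) and quisinostat (-0.66, adjusted p = 0.000673).

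Of 17 ER folding enzymes, mivebresib raised 8 and lowered none, with a list median of 0.36, beside 22.1% of all genes raised. Over the 17, control replicate 2 minus control replicate 1 had a median of 0.43 on the log2 scale, against 0.0 over all genes, and the part of this in the list's values was not tested. The genes raised included SEL1L (0.71), PDIA4 (0.70), MANF (0.67) and HYOU1 (0.56, also counted among the exchange factors), each with an adjusted p between 0.000789 and 0.0302. Quisinostat raised 4 and lowered 3, and romidepsin raised 2 and lowered none. ERO1B, an ER oxidase, had its largest change with quisinostat (2.23 ± 0.23, adjusted p = 9.7e-05). Of 13 other heat shock response genes, romidepsin raised 2 and lowered 2, quisinostat raised 1 and lowered 4, and mivebresib raised 3 and lowered 4. CLU (clusterin), an extracellular chaperone, rose with each drug, by 0.70, 1.78 and 2.40 (adjusted p = 0.00233, 5.85e-06 and 2.59e-06). SERPINH1 (HSP47), the collagen chaperone of the ER, fell with each, with log2 FCs of -0.50, -1.22 and -1.25 (adjusted p = 0.0321, 0.000217 and 0.000239).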

How the data were processed

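RNA was measured in 8 MP38 libraries (4 groups of 2 wells). The deposited raw count table, made by the authors from strand-specific paired-end reads through BioJupies, was used as given; the submitters' processing notes name build hg38, and the aligner, annotation and strand setting are not given in the sources used here. The authors' second table was log10 (CPM + 1) of these counts (largest difference 8.88e-16). A quantile-normalized table was not used. Groups came from the treatment labels.

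Genes passing edgeR's filterByExpr were fitted together with edgeR 4.0.16 (TMM factors, robust quasi-likelihood test, 1 model of 8 libraries, R 4.3.3), with Benjamini-Hochberg adjustment over 15085 genes and a threshold of 0.05. The common biological coefficient of variation was 0.0938. SE is log2 FC divided by the square root of F. The script was tested on simulated data. CPM values use TMM factors. Alternatives were DESeq2 1.42.0, limma 3.58.1 (voom), other scalings and filters, the 4 libraries compared alone, the replicate block and each library left out in turn. Gene positions are GENCODE 29, promoter windows RefSeq GRCh38.p14 (64 of 74 members matched), and per-kb levels use the longest basic transcript.

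Members and lists were chosen with earlier results of these data known. Named genes were a fixed core of members, the 3 largest called changes of each family per drug and the 5 largest called differences between drugs, at a mean of at least 1 CPM over the libraries. Members named in counts, overlaps or grouped by compartment or motif beyond this were chosen after their values were seen. Libraries held 28483235 to 29359024 counts, so that 3 counts equal 0.102 to 0.105 CPM.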

Additional observations from a re-analysis of the deposited data

How the results depend on the processing

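The 12 counts of called members were recomputed under each alternative. With scaling by total counts alone, which moved the median log2 FC of all genes to 0.20 for quisinostat, romidepsin lowered 7 members, quisinostat lowered 12, quisinostat was higher than romidepsin in 12 and lower in 4, and mivebresib was lower than quisinostat in 23. With upper-quartile factors, the romidepsin and quisinostat falls were 7 and 15, and quisinostat exceeded romidepsin in 9. With a mean of at least 5 CPM these were 6 (romidepsin falls) and 3 (quisinostat above romidepsin), and DESeq2 also gave 3 for the latter. With only the 4 libraries compared, romidepsin lowered 3, quisinostat 15 and mivebresib 8, and quisinostat was higher than romidepsin in 9 and lower in 26. With a log2 FC beyond 1.5 as well, members raised and lowered were 1 and 0 (romidepsin), 2 and 0 (quisinostat), 0 and 3 (mivebresib), 0 and 0 (quisinostat against romidepsin), 0 and 5 (mivebresib against romidepsin) and 0 and 5 (mivebresib against quisinostat). The cause was not tested.

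Leaving out each library in turn gave 7 to 17 members raised and 1 to 19 lowered with romidepsin, 12 to 23 and 15 to 27 with quisinostat, and 10 to 20 and 9 to 17 with mivebresib. Quisinostat was higher than romidepsin in 2 to 9 and lower in 3 to 26 (the most without control replicate 1), mivebresib higher than romidepsin in 8 (without romidepsin replicate 2) to 24 and lower in 9 to 14, and mivebresib higher than quisinostat in 17 to 30 and lower in 9 to 17. The lowest counts against control came without romidepsin replicate 1, quisinostat replicate 2 and mivebresib replicate 2, and the highest counts against control came without control replicate 2. An arm left with 1 library was assumed to vary like the other groups.

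Among the named members, signs turned only for values that were not called. With scaling by total counts alone, these were quisinostat values of HSPH1 (0.06), HSP90AA1 (0.08), HSPB8 (0.01), HSPB3 (0.17), HSPB7 (0.10) and DNAJA4 (0.07), romidepsin values of DNAJA2 (0.04), DNAJB6 (0.01) and DNAJC18 (0.04), and the mivebresib value of DNAJB12 (0.01). With upper-quartile factors these were quisinostat values of HSP90AA1 (0.01), HSPB3 (0.10), HSPB7 (0.03) and DNAJA4 (0.0), romidepsin values of DNAJA2 (0.06), DNAJB6 (0.03) and DNAJC18 (0.05), and mivebresib values of HSPB1 (0.01) and DNAJB12 (0.03). With a mean of at least 5 CPM these were DNAJB12 with mivebresib (0.01), DNAJA2 (0.03), DNAJB6 (0.0) and DNAJC18 (0.03) with romidepsin, and HSPB3 with quisinostat (0.07). Leaving out 1 library turned signs in the following named members, given with the range over the 8 fits. With romidepsin these were HSP90B1 (-0.10 to 0.49), DNAJB9 (-0.14 to 0.32), DNAJC3 (-0.03 to 0.47), DNAJA2 (-0.04 to 0.0), DNAJB5 (-0.02 to 0.14), DNAJB6 (-0.14 to 0.05), DNAJC28 (-0.10 to 0.12) and DNAJC18 (-0.07 to 0.0). With quisinostat these were HSP90AA1 (-0.25 to 0.01), DNAJC3 (-0.03 to 0.51), HSPB3 (-0.14 to 0.02) and HSPB7 (-0.22 to 0.02). With mivebresib these were HSPA8 (-0.04 to 0.11), HSPB1 (-0.21 to 0.19), DNAJB12 (-0.14 to 0.15), DNAJB5 (-0.04 to 0.12) and DNAJB11 (-0.14 to 0.15).

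With the replicate block, 120 of 123 named values kept their call, HSPD1 with quisinostat and HSPH1 with mivebresib lost it, DNAJC3 with mivebresib gained one, and the counts against control were 10 and 12 (romidepsin), 18 and 23 (quisinostat) and 17 and 15 (mivebresib). Correlations of same-numbered deviations ran from -0.162 to 0.158, so the numbers do not pair the wells.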
